A study of Mus musculus with 8 samples.

Results

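The 10 genes described here encode noncollagenous glycoproteins of cartilage. They are the 4 matrilins Matn1, Matn2, Matn3 and Matn4, the cartilage oligomeric matrix protein Comp, the leucine-rich repeat protein chondroadherin (Chad), the cartilage intermediate layer proteins Cilp and Cilp2, the Gla-rich protein Ucma and chondromodulin (Cnmd, also named Lect1). They were taken by name from the 43346 gene identifiers counted in each sample, and all 10 were found. RNA came from notochord-derived cells (NDCs) of Shh-cre;ROSA:YFP mice, in which Cre made by Shh-expressing cells switches on YFP in those cells and in their descendants. The genotype was the same in all samples. At embryonic day 12.5 (E12.5), 4 litters gave whole dissected notochords that went straight into TRIzol. At postnatal day 0 (P0), 4 other litters gave nucleus pulposus (NP) cells that were released mechanically from lumbar and thoracic discs and sorted for YFP. Each sample pooled several animals of a litter, and no sort was made at E12.5, so stage and isolation method cannot be told apart. In RNA from whole samples, fewer cells of a type and less RNA per cell cannot be told apart either.

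Matrilins are secreted adaptor proteins built from von Willebrand factor A domains and EGF-like repeats, which join through a coiled coil and link collagen fibrils to proteoglycans. Matn1 and Matn3 are best known from growing cartilage, whereas Matn2 and Matn4 are also made in many other connective tissues. Comp, a member of the thrombospondin family, and Chad both bind type II collagen, and Chad also binds cells through an integrin. Cnmd is made as a membrane-bound precursor whose released domain keeps blood vessels out of cartilage. The NP forms from the notochord inside a ring of cartilage-forming sclerotome cells, so these genes can be active on either side of the notochordal boundary.

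The libraries held 4442775 to 7180221 counts on genes at E12.5 and 6371842 to 8904050 at P0. A floor of 3 counts, which covers counting error only, equalled 0.353 to 0.738 CPM on the TMM library sizes used for CPM here. CPM is the unit in which counts are scaled to the size of their library. The stages were compared in edgeR over 15467 genes left by a filter on low counts, and genes with an adjusted p under 0.05 were called. Of all genes tested, 27.9% were called, 16.0% as higher and 12.0% as lower at P0. The balance depended on the scaling, with 2468 higher and 1853 lower here but 2105 higher and 2322 lower under upper quartile normalization. Notochord markers were present in both stages, with T at 584 ± 335 CPM at E12.5 and 1319 ± 745 at P0 (SD, n = 4 each). Shh fell from 841 ± 456 to 5.94 ± 5.04 CPM (log2 fold change -7.14, edgeR adjusted p = 0.000742), and Noto had at most 3 counts in any library. The E12.5 litters NDP10.2 and NPD9.2 stood apart in their reads that fell on more than a single gene, 16.3% and 17.5% against 10.6% and 11.6% in the other E12.5 litters.

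Matn4 and Matn3 moved in opposite directions between the notochord and the neonatal NP. Matn4, the leading matrilin of the E12.5 litters, fell to 4 to 19 reads per library at P0, while Matn3 rose and became the matrilin with the highest mean level per kilobase of exon. Chad and Cnmd fell together by a smaller amount, and the other members were low or showed no called difference. Of the 10 members, 8 passed the filter, and 4 were called (27.9% of all genes tested), 1 as higher and 3 as lower. The median log2 fold change of the 8 tested members was -0.20, beside 0.04 over all genes tested. Matn1 and Cilp2 did not pass the filter. Matn4 passed it through its E12.5 litters, so its difference was in part a condition of its being tested.

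**Figure D1:**
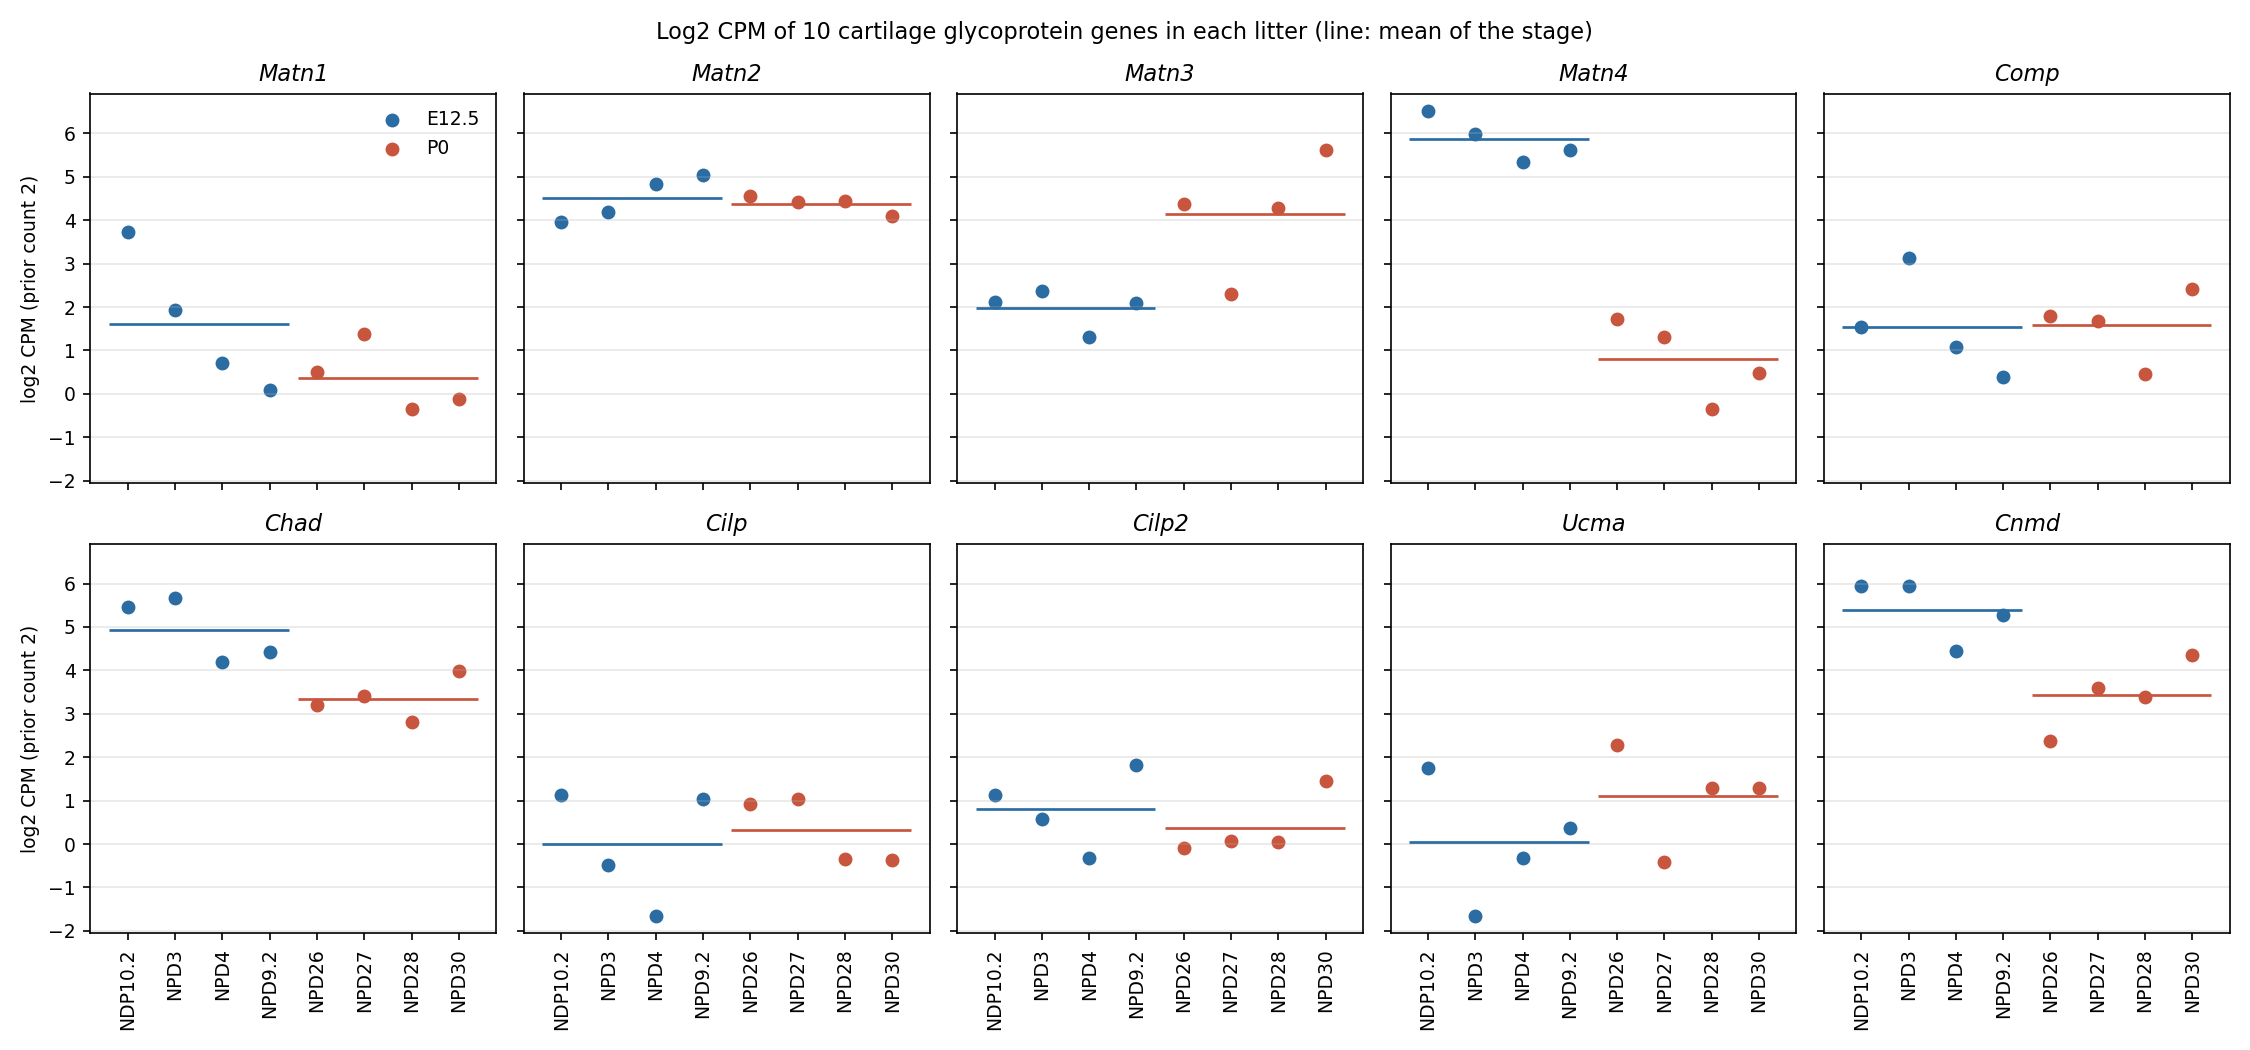
Log2 CPM (vertical axis, prior count of 2) of each of the 10 genes in each litter (horizontal axis), blue for E12.5 and red for P0, with a line at the mean of each stage. Matn4, Chad and Cnmd lie lower in every P0 litter than in any E12.5 litter, and Matn3 lies higher in 3 of the 4 P0 litters.

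The promoters of the 4 called members are shown because these are the genes that differed between the stages, in 2 directions. Each line gives the 250 bases before the transcription start of the RefSeq gene on GRCm38.p6, 5′ to 3′ in the direction of transcription. Matn4 is from the minus strand at chr2:164405161-164405410, Matn3 from the plus strand at chr12:8947679-8947928, Chad from the plus strand at chr11:94564797-94565046 and Cnmd from the minus strand at chr14:79662184-79662433. Capitals mark a match to a searched motif.
Matn4: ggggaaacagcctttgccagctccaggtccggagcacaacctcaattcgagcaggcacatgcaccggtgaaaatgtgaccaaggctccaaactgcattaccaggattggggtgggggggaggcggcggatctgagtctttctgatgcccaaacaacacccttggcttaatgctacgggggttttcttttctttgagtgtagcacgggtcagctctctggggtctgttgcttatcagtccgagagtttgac
Matn3: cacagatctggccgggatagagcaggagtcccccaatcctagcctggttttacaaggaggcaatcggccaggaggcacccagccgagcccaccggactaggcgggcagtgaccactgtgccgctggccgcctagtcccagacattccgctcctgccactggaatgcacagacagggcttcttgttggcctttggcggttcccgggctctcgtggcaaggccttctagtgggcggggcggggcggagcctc
Chad: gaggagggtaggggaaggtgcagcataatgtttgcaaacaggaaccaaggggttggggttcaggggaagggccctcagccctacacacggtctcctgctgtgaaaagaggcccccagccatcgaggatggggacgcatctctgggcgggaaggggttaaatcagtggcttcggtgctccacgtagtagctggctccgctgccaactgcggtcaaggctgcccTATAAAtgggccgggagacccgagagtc
Cnmd: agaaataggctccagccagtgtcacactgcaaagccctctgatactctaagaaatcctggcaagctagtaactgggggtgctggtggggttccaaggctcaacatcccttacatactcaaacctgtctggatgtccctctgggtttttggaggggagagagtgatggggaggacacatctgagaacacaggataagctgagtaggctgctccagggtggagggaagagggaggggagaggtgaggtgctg
Motifs were searched on both strands and without mismatches in 32841 RefSeq promoter windows of the same length. They were the SOX core AACAAT, found in 9.43% of all windows, the RUNX core TGTGGT in 14.0%, the FOXA core TGTTTAC in 3.17%, the brachyury site GGTGTGA in 3.33%, the GLI core GGGTGGTC in 0.703%, the palindromic NFI full site in 0.0365% and the TATA box TATAAA in 12.4%. Among the 4 windows shown there was a single match, a TATA box that began 28 bases before the start of Chad. The windows of Matn4, Matn3 and Cnmd held none of these letters. In the windows of the other members with an entry, Matn1, Ucma and Cilp each had a RUNX core, at 134, 62 and 205 bases before the start, and Cilp2 had a SOX core at 241 bases. Bases G and C made up 65.2% of the Matn3 window, 60.4% of the Chad window, 54.4% of the Matn4 window and 54.0% of the Cnmd window, beside a median of 52.4% over all windows. The table holds a further Matn4 start, whose window at chr2:164404819-164405068 (minus strand) has 62.8% G and C and no motif match. Matn2 and Comp were not matched in the promoter table.

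Matn4 (ENSMUSG00000016995.13, chr2:164389393-164405160, minus strand, GRCm38) encodes a matrilin of cartilage and of many loose connective tissues. At E12.5 it was counted 386 times in litter NDP10.2, 323 in NPD3, 329 in NPD4 and 199 in NPD9.2. At P0 it was counted 19 times in litter NPD26, 15 in NPD27, 4 in NPD28 and 7 in NPD30. On TMM library sizes these were 91.1, 63.0, 39.8 and 48.9 CPM at E12.5 and 2.99, 2.16, 0.471 and 1.06 CPM at P0. Every P0 litter was below every E12.5 litter. Chad and Cnmd shared this order, so 3 members did not overlap between the stages, beside 29.9% of all genes tested in either direction and 14.4% with every P0 litter lower. The mean fell from 60.7 ± 22.4 to 1.67 ± 1.12 CPM (SD, n = 4), a ratio of 36.3. The log2 fold change was -5.19 with a standard error of 0.52 and a 95% interval from -6.33 to -4.05 (edgeR adjusted p = 0.00015), and 59 of the 15467 genes tested fell further. Of the exonic bases of Matn4, 149 (2.9%) are shared with Rbpjl on the opposite strand, and the strand setting of the counting is not given in the sources used here. Rbpjl itself had 0 to 35 counts per library.

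The profile of Matn4 over the 8 litters was nearest to those of Pax1 and Sfrp2 among the 12637 other tested genes with a mean log2 CPM of at least 2. Pax1 is a transcription factor of the sclerotome, and Sfrp2 encodes a secreted Wnt antagonist. Their centred log2 CPM differed from that of Matn4 by a root mean square of 0.521 and 0.542. The profile spans both stages, so a gene picked as near to a called member had to differ in the same direction. The fold changes of such genes describe the choice and are no separate result. Pax1 fell from 87.5 ± 13.9 to 2.23 ± 1.11 CPM (log2 fold change -5.29, edgeR adjusted p = 3.43e-05), and Sfrp2 had a log2 fold change of -5.25 (edgeR adjusted p = 7.18e-05). The sclerotome marker list as a whole moved the same way. All 7 of its genes were called as lower at P0, beside 12.0% of all genes tested. Its summed level ranged between 132 and 187 CPM at E12.5 but between 7.77 and 21.8 CPM at P0, and none of its genes was at 0 throughout a stage. Among them Nkx3-2, Uncx and Meox1, at 0 to 10 counts in the P0 litters, passed the filter through their E12.5 litters and had to differ to be tested. Nkx3-2 is also counted among the chondrogenic regulators below. Within P0, litter NPD28 had the lowest summed level of sclerotome markers and also the lowest Matn4. The highest sum at P0 was in NPD27 (21.8 CPM), but the highest Matn4 was in NPD26 (2.99 CPM). At E12.5 the highest sum was in NPD9.2 (187 CPM), where Matn4 was at 48.9 CPM. Matn4 was highest in NDP10.2 (91.1 CPM), where that sum was 176 CPM. The part of sclerotome-derived RNA in the fall of Matn4 was not tested.

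Matn3 (ENSMUSG00000020583.4, chr12:8947929-8972028, plus strand) encodes a cartilage matrilin in which mutations cause epiphyseal dysplasia. Its counts at E12.5 were 17, 25, 18 and 16, and those at P0 were 130, 32, 163 and 322, with litters in the order given for Matn4. These were 4.01, 4.88, 2.18 and 3.93 CPM at E12.5 and 20.4, 4.61, 19.2 and 48.8 CPM at P0. The E12.5 litters were alike, whereas the P0 litters spread widely, and the stages overlapped because P0 litter NPD27 was just below E12.5 litter NPD3. The mean rose from 3.75 ± 1.13 to 23.3 ± 18.5 CPM (SD, n = 4), and the log2 fold change was 2.64 with a standard error of 0.62 and a 95% interval from 1.28 to 4.01 (edgeR adjusted p = 0.00922). The call held in each of the 8 fits with a litter left out, with log2 fold changes from 1.95 to 2.99. It was lost in limma-voom (log2 fold change 2.32, adjusted p = 0.0725) and in edgeR without the E12.5 litters NDP10.2 and NPD9.2 (2.71, adjusted p = 0.0878).

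Litter NPD30, with the highest Matn3, also had the highest summed level of notochord markers, 31824 CPM against 8219.7 to 12595 CPM in the other P0 litters. Litter NPD27, with the lowest Matn3 of the P0 litters, had the lowest of these sums. Car3 alone, at 12293 ± 8499 CPM at P0, made up most of them. By mean log2 CPM the list was also highest in NPD30 (7.49) and lowest in NPD27 (5.89). Some other lists had the same extremes in their sums. Annulus fibrosus and tendon markers ran from 696 CPM in NPD27 to 1582 CPM in NPD30, and cartilage matrix partners from 2999 to 11115 CPM. The annulus and tendon sum was mostly Fmod (826 ± 484 CPM at P0). By mean log2 CPM that list was lowest in NPD28 (2.85) and not in NPD27 (3.78). Osteoblast markers were highest in NPD30 too (18043 CPM), but lowest in NPD26 (5064 CPM) and not in NPD27 (11477 CPM). Chondrogenic regulators were highest in NPD30 (1265 CPM) and lowest in NPD26 (391 CPM). Growth plate markers were highest in NPD30 (281 CPM) and lowest in NPD28 (233 CPM), or in NPD27 by mean log2 CPM (3.52). Leukocyte markers ran from 1073 CPM in NPD30 to 9445 CPM in NPD28, and were 5377 CPM in NPD26 and 6200.0 CPM in NPD27. The E12.5 libraries had 65.2 to 188 CPM of leukocyte markers. All 13 tested genes of that list were called as higher at P0, beside 16.0% of all genes tested. Some of them, such as Retnlg at 0 to 1 counts in the E12.5 litters, passed the filter through their P0 litters alone. Those had to differ to be tested. How far the makeup of the P0 samples sets their spread in Matn3 was not tested. The profiles nearest to that of Matn3 were those of the homeobox gene Barx2 (root mean square difference 0.304) and of the desmosomal cadherin gene Dsg2 (0.356). Picked over both stages, they had to rise with Matn3. Barx2 differed by a log2 fold change of 2.36 (edgeR adjusted p = 0.0136) and Dsg2 by 2.54 (adjusted p = 0.00486).

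Matn2 (ENSMUSG00000022324.10, chr15:34306677-34436273, plus strand), the longest matrilin, had no called difference. Its levels were 15.3, 18.0, 28.4 and 32.7 CPM at E12.5 and 23.3, 20.9, 21.5 and 16.8 CPM at P0. The P0 litters all lay within the range of the E12.5 litters, and the means were 23.6 ± 8.29 and 20.6 ± 2.73 CPM (SD, n = 4). The log2 fold change was -0.19 with a 95% interval from -0.83 to 0.45 (edgeR adjusted p = 0.663), the narrowest interval of the tested members. It shares 70 exonic bases with 9430069I07Rik, which had 0 counts in every library. The nearest profiles were those of Chst10 and Gm16433, at root mean square differences of 0.125 and 0.141.

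Matn1 (ENSMUSG00000040533.7, chr4:130944385-130955475, plus strand), the first cartilage matrilin to be described, was counted 55, 18, 11 and 3 times at E12.5 and 7, 16, 4 and 4 times at P0. Litter NDP10.2 alone was far above the rest at 13.0 CPM, with the other E12.5 litters at 0.738 to 3.51 CPM and the P0 litters at 0.471 to 2.31 CPM. The stages overlapped, and the means of 4.64 ± 5.68 and 1.12 ± 0.836 CPM (SD, n = 4) differed by less than the SD at E12.5. Matn1 missed the filter on low counts. Tested without any filter, its log2 fold change was -2.03 (edgeR adjusted p = 0.0523). In the filtered fit without litter NDP10.2, where Matn1 passed the filter, it was -0.78 (adjusted p = 0.518). Matn1 also passed in the fits without NPD3, NPD4, NPD9.2, NPD26, NPD28 or NPD30. There its log2 fold change was -2.4 to -1.75 (edgeR adjusted p from 0.0712 to 0.231).

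Within a library the 4 matrilins can be compared as shares of their summed counts per kilobase of exon, which takes library size out. Matn4 made up 63.2%, 66.1%, 56.5% and 57.8% at E12.5, whereas at P0 it made up 4.97%, 6.49%, 0.898% and 1.06%. It was the largest share in each E12.5 litter. The mean share fell from 60.9% ± 4.52 to 3.35% ± 2.81 (SD, n = 4), a difference of -57.5 percentage points (two-sided exact permutation test, p = 0.0286, the smallest that 4 against 4 litters allow). Only Matn4 was tested, chosen from these shares as the highest mean over all 8 litters (32.1%, beside 31.9% for Matn3). Without division by length the highest mean was that of Matn2 (38.1%). The test uses the same counts as the fold change of Matn4 and is no separate result. Matn3 held 4.78% to 8.79% of the matrilin signal at E12.5 but 58.3%, 23.8%, 62.8% and 83.5% at P0, so it had the largest share in 3 of them. In NPD27 the largest share was that of Matn2, 51.8%. Matn2 held 22.4% ± 12.1 at E12.5 and 32.9% ± 15.5 at P0, and Matn1 9.98% ± 9.35 and 6.63% ± 7.64 (SD, n = 4). The share of Matn1 differed between the stages by less than its spread, as did that of Matn2 on this scale. The length used mattered for Matn2 and Matn3 at P0. Without division by length, Matn2 held 27.5% ± 13.4 at E12.5 and 48.8% ± 18.4 at P0 (SD, n = 4) and exceeded Matn3 in 3 P0 litters, by 48.7% to 42.8% in NPD26, 69.7% to 15.4% in NPD27 and 51.7% to 46.0% in NPD28, so that Matn3 led in NPD30 alone. With the longest coding transcript as the length, Matn3 led in the same 3 litters as with the union of exons, by narrow margins in NPD26 (44.8% to 43.0%) and NPD28 (49.6% to 46.9%), and Matn2 held 20.2% ± 10.7 and 43.3% ± 16.5.

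**Figure D2:**
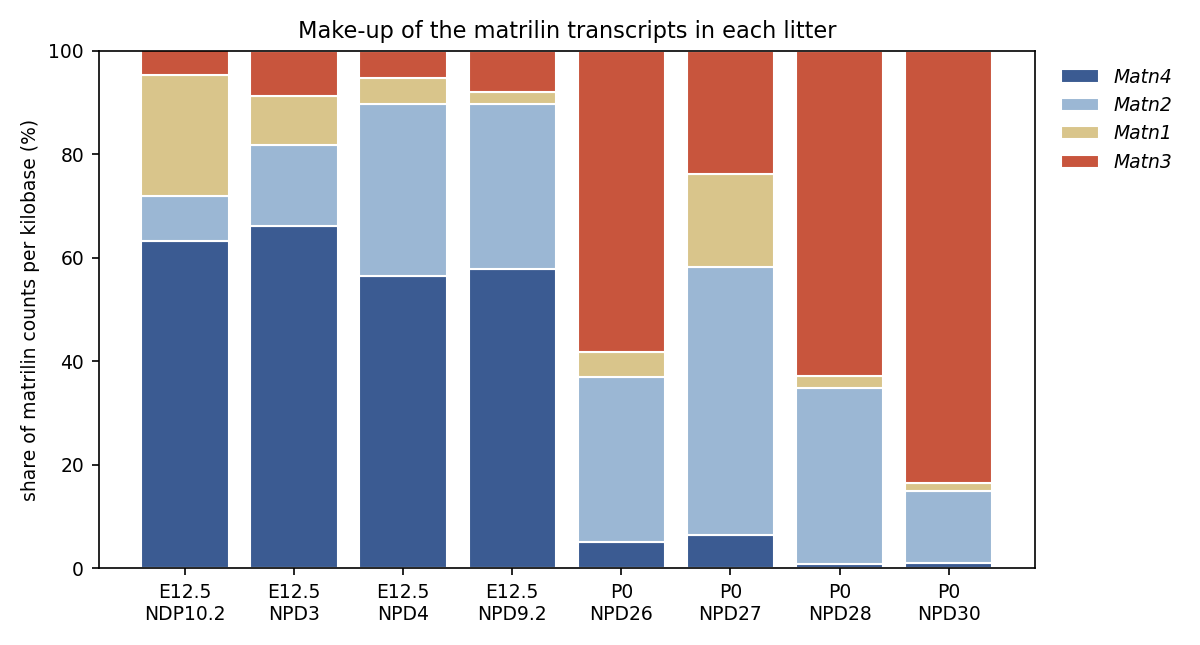
Share of each matrilin (vertical axis, % of the summed matrilin counts per kilobase of exon) in each litter (horizontal axis). Matn4 makes up 56.5% to 66.1% of the bar in the E12.5 litters and 0.898% to 6.49% in the P0 litters, and Matn3 takes the largest share in 3 P0 litters on this scale.

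Chad (ENSMUSG00000039084.8, chr11:94565047-94569127, plus strand), the collagen- and integrin-binding protein chondroadherin, was lower at P0. It was counted 186, 260, 148 and 86 times at E12.5, which were 43.9, 50.7, 17.9 and 21.1 CPM, and 57, 71, 57 and 102 times at P0, from 6.71 CPM in NPD28 to 15.5 CPM in NPD30. No P0 litter reached the E12.5 litters, but the highest of them, NPD30, was close to the E12.5 litter NPD4. The mean fell from 33.4 ± 16.3 to 10.3 ± 3.71 CPM (SD, n = 4), with a log2 fold change of -1.69, a standard error of 0.40 and a 95% interval from -2.57 to -0.81 (edgeR adjusted p = 0.00954). The nearest profiles were those of Rcn1, which encodes a calcium-binding protein of the endoplasmic reticulum, and of Schip1, at root mean square differences of 0.237 and 0.288. Both were picked over both stages and so had to fall too, with log2 fold changes of -1.47 and -1.43 (edgeR adjusted p = 0.00887 and 0.0181).

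Cnmd (ENSMUSG00000022025.9, chr14:79637690-79662170, minus strand), the vessel-excluding chondromodulin, fell to a like degree. Its levels were 61.1, 61.3, 21.4 and 38.6 CPM at E12.5 and 4.87, 11.8, 10.1 and 20.2 CPM at P0, in the same order of litters. The stages did not overlap, but the highest P0 litter and the lowest E12.5 litter, again NPD30 and NPD4, were close. The mean fell from 45.6 ± 19.3 to 11.7 ± 6.34 CPM (SD, n = 4), with a log2 fold change of -1.95, a standard error of 0.45 and a 95% interval from -2.95 to -0.95 (edgeR adjusted p = 0.00879). Without the E12.5 litters NDP10.2 and NPD9.2 the call was lost (log2 fold change -1.85, adjusted p = 0.0687). The nearest profiles were those of Adamtsl1, a secreted ADAMTS-like protein, and of the potassium channel subunit gene Kcnmb4, at root mean square differences of 0.289 and 0.327. By the way they were picked, both had to fall as well (log2 fold changes -2.14 and -1.46, edgeR adjusted p = 0.00189 and 0.0357).

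Within E12.5, Chad, Cnmd and Matn4 were each higher in the litters NDP10.2 and NPD3 than in NPD4 and NPD9.2. Cartilage matrix partners split the same way, at 11932 and 9862 CPM against 3481 and 5895 CPM. The summed level of notochord markers was 6367 and 6329 CPM in the first pair and 2382 and 2669.7 CPM in the second. At P0 Chad and Cnmd were highest in NPD30, as were the sums of notochord, osteoblast and growth plate markers, cartilage matrix partners and chondrogenic regulators. Their lowest P0 litters differed, with Chad lowest in NPD28 (6.71 CPM), Cnmd in NPD26 (4.87 CPM) and the notochord sum in NPD27 (8219.7 CPM). Whether the makeup of the samples sets these levels was not tested. Over the whole notochord list, 9 of 10 genes were tested, and 3 were called as higher and 2 as lower at P0, beside 16.0% and 12.0% of all genes tested. Car3 was the most abundant at 1569 ± 948 CPM at E12.5 and 12293 ± 8499 at P0 (SD, n = 4). Krt19 and Cd24a were called as higher with Car3 (log2 fold changes 1.74 and 1.33, edgeR adjusted p = 0.0267 and 0.0224), and Foxa1 as lower with Shh (-2.23, adjusted p = 0.00682). The other tested markers, T, Foxa2, Krt8 and Krt18, were not called, at log2 fold changes of 1.18, -0.77, 0.58 and -0.87 (edgeR adjusted p = 0.117, 0.369, 0.419 and 0.225).

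**Figure D3:**
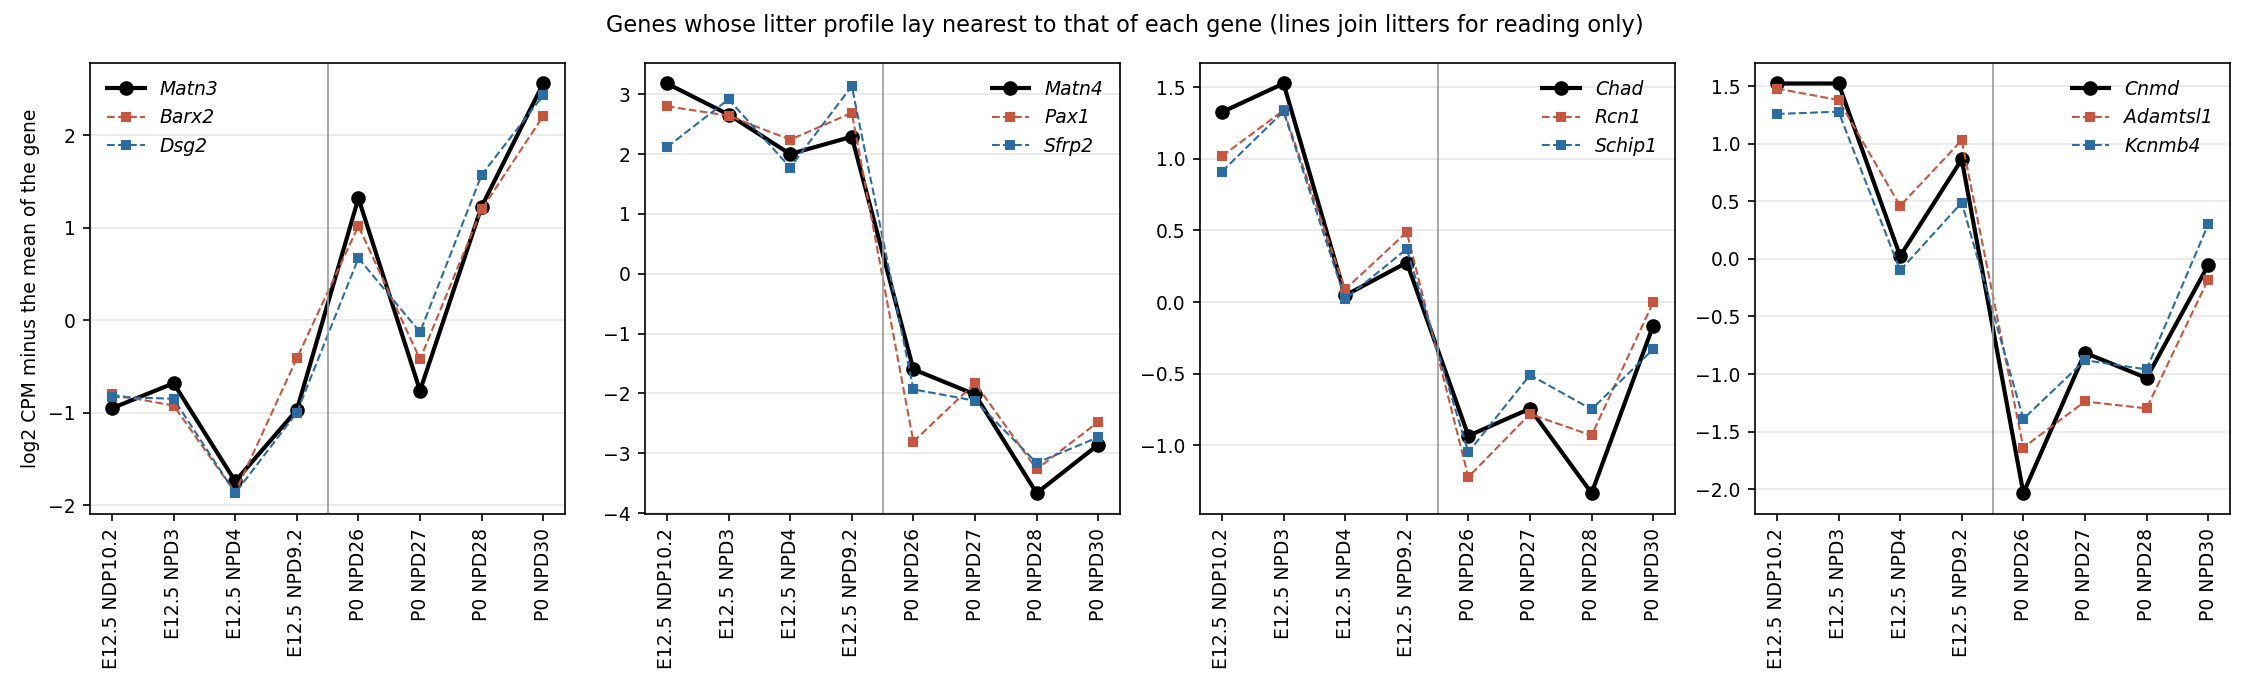
Log2 CPM minus the mean of the gene over the 8 litters (vertical axis) in each litter (horizontal axis), in black for a called member and in colour for the 2 genes with the nearest profile, with a grey line between the stages. Pax1 and Sfrp2 fall with Matn4, and Barx2 and Dsg2 share with Matn3 the low value of P0 litter NPD27 and the high value of NPD30. The coloured genes were picked by this profile, so their likeness to the member follows from the choice.

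Comp (ENSMUSG00000031849.8, chr8:70373558-70382066, plus strand) was low at both stages. It was counted 11, 43, 15 and 4 times at E12.5 and 20, 20, 9 and 33 times at P0, and the stages overlapped throughout. The means were 3.45 ± 3.36 and 3.02 ± 1.61 CPM (SD, n = 4), and the log2 fold change of -0.20 had a 95% interval from -1.75 to 1.35 (edgeR adjusted p = 0.866). Its direction turned on single litters, since it was 0.70 without NPD3 (adjusted p = 0.503) and 0.10 without NPD28 (adjusted p = 0.938). The nearest profiles to Comp were those of Dnah7b (0.368) and Pir (0.488), neither with a called difference.

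Cilp, Cilp2 and Ucma were close to the floor. Cilp (ENSMUSG00000042254.10, chr9:65265180-65280605, plus strand) had 8, 2, 0 and 7 counts at E12.5 and 10, 12, 4 and 3 at P0. Its log2 fold change of 0.17 had a 95% interval from -1.97 to 2.32 (edgeR adjusted p = 0.916). Cilp2 (ENSMUSG00000044006.8, chr8:69880369-69887687, minus strand) had 8, 6, 4 and 13 counts at E12.5 and 4, 5, 6 and 16 at P0, missed the filter, and had a log2 fold change of -0.52 when tested without a filter (edgeR adjusted p = 0.717). For both genes every stage held litters at a few reads, so a difference of moderate size was not detectable at this depth. Ucma (ENSMUSG00000026668.6, chr2:4976122-4985748, plus strand), a protein with many Gla residues that is secreted by young chondrocytes, had 13, 0, 4 and 4 counts at E12.5 and 29, 3, 18 and 14 at P0. In 3 P0 litters it was above 3 of the E12.5 litters, but NPD27 and NDP10.2 made the stages overlap. Its means were 1.13 ± 1.35 and 2.31 ± 1.70 CPM (SD, n = 4), with a log2 fold change of 1.08 and a 95% interval from -1.04 to 3.19 (edgeR adjusted p = 0.442). Without NDP10.2 the log2 fold change was 2.21 (adjusted p = 0.155), and without NPD26, the litter with the highest Ucma, it was 0.53 (adjusted p = 0.768). Without NPD3 it was 0.62 (adjusted p = 0.668).

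**Figure D4:**
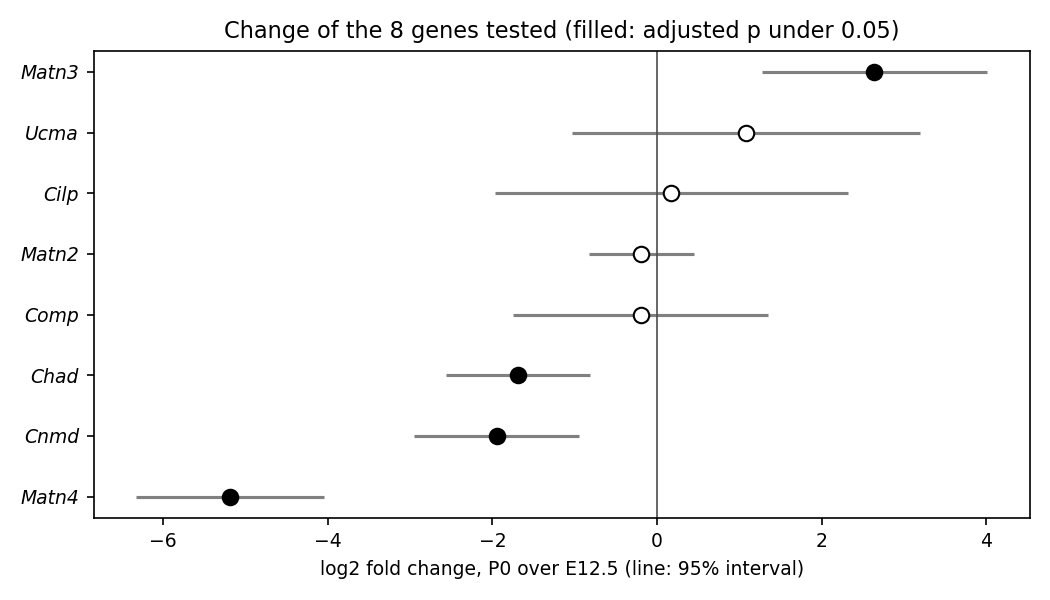
Log2 fold change, P0 over E12.5 (horizontal axis), of the 8 members tested, with 95% intervals as lines and filled points for an adjusted p under 0.05. Matn4 lies at -5.19 and Matn3 at 2.64, and the intervals of Ucma, Cilp and Comp each span more than 3 log2 units.

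Per kilobase of exon, the order of the members at E12.5 was Cnmd (24.7 ± 10.5 CPM per kilobase), Chad (19.9 ± 9.73), Matn4 (11.7 ± 4.33), Matn2 (3.77 ± 1.32) and Matn1 (2.32 ± 2.84), followed by Ucma, Matn3 and Comp at 1.16 to 1.28 and by Cilp2 and Cilp at 0.390 and 0.235. The ranges of neighbours in this order overlapped, except that Matn4 stood above Matn2, with 7.69 to 17.6 against 2.45 to 5.22. At P0 the order of levels was Matn3 (7.72 ± 6.13), Cnmd (6.37 ± 3.44), Chad (6.16 ± 2.21), Matn2 (3.30 ± 0.436) and Ucma (2.61 ± 1.92), then Comp, Matn1, Matn4, Cilp2 and Cilp from 1.02 down to 0.249. Here too the ranges of neighbours overlapped, except that Chad, at 3.99 or more in every litter, stood above Matn2 at 2.69 to 3.72. With the longest coding transcript as the length, Matn4 was 2nd at E12.5 at 26.3 ± 9.72, and Cnmd led at P0 at 8.20 ± 4.43. Matn4 went from the 3rd to the 8th place of the 10 members between the stages, and Matn3 from the 7th to the 1st, by the union of exons.

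As a scale that does not use library size, the 4 called members were also set against Col2a1, the main cartilage collagen, and Sox9, the transcription factor that drives it. These ratios were chosen after the values had been seen and carry no test. Per 1000 Col2a1 counts, Matn4 ranged from 16.8 to 29.8 at E12.5 but from 0.136 to 2.90 at P0, and Matn3 was 0.740, 1.46, 1.63 and 1.47 at E12.5 and 19.8, 5.00, 5.53 and 13.3 at P0. On this scale the stages did not overlap for Matn3 either. Per 1000 Sox9 counts, Matn4 ranged from 88.6 to 116 before birth but from 1.82 to 22.3 after it, and Matn3 was 5.05 to 7.47 and 36.1 to 153. The spread of Matn4 among the E12.5 litters was narrow relative to Sox9.

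Chad and Cnmd behaved differently. Per 1000 Col2a1 counts, Chad ranged from 7.90 to 15.2 at E12.5 but from 1.93 to 11.1 at P0, and 40.1 to 71.3 and 26.0 to 80.1 per 1000 Sox9 counts, where its means were 52.3 and 50.7. Cnmd was 11.3 to 18.4 and 2.92 to 12.8 per 1000 Col2a1 counts, and 49.6 to 86.1 and 36.4 to 92.6 per 1000 Sox9 counts. The stages overlapped for both genes on both scales. Relative to Sox9 the mean log2 difference was -0.17 for Chad and -0.57 for Cnmd, against 3.70 for Matn3 and -3.99 for Matn4. Col2a1 and Sox9 were themselves not called, at log2 fold changes of -0.49 (edgeR adjusted p = 0.558) and -1.23 (adjusted p = 0.0636). Sox9 was still no steady scale. Its mean fell from 613 ± 162 to 261 ± 185 CPM (SD, n = 4), and the paper lists it as significantly lower at P0. The differences relative to Sox9 include this fall.

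**Figure D5:**
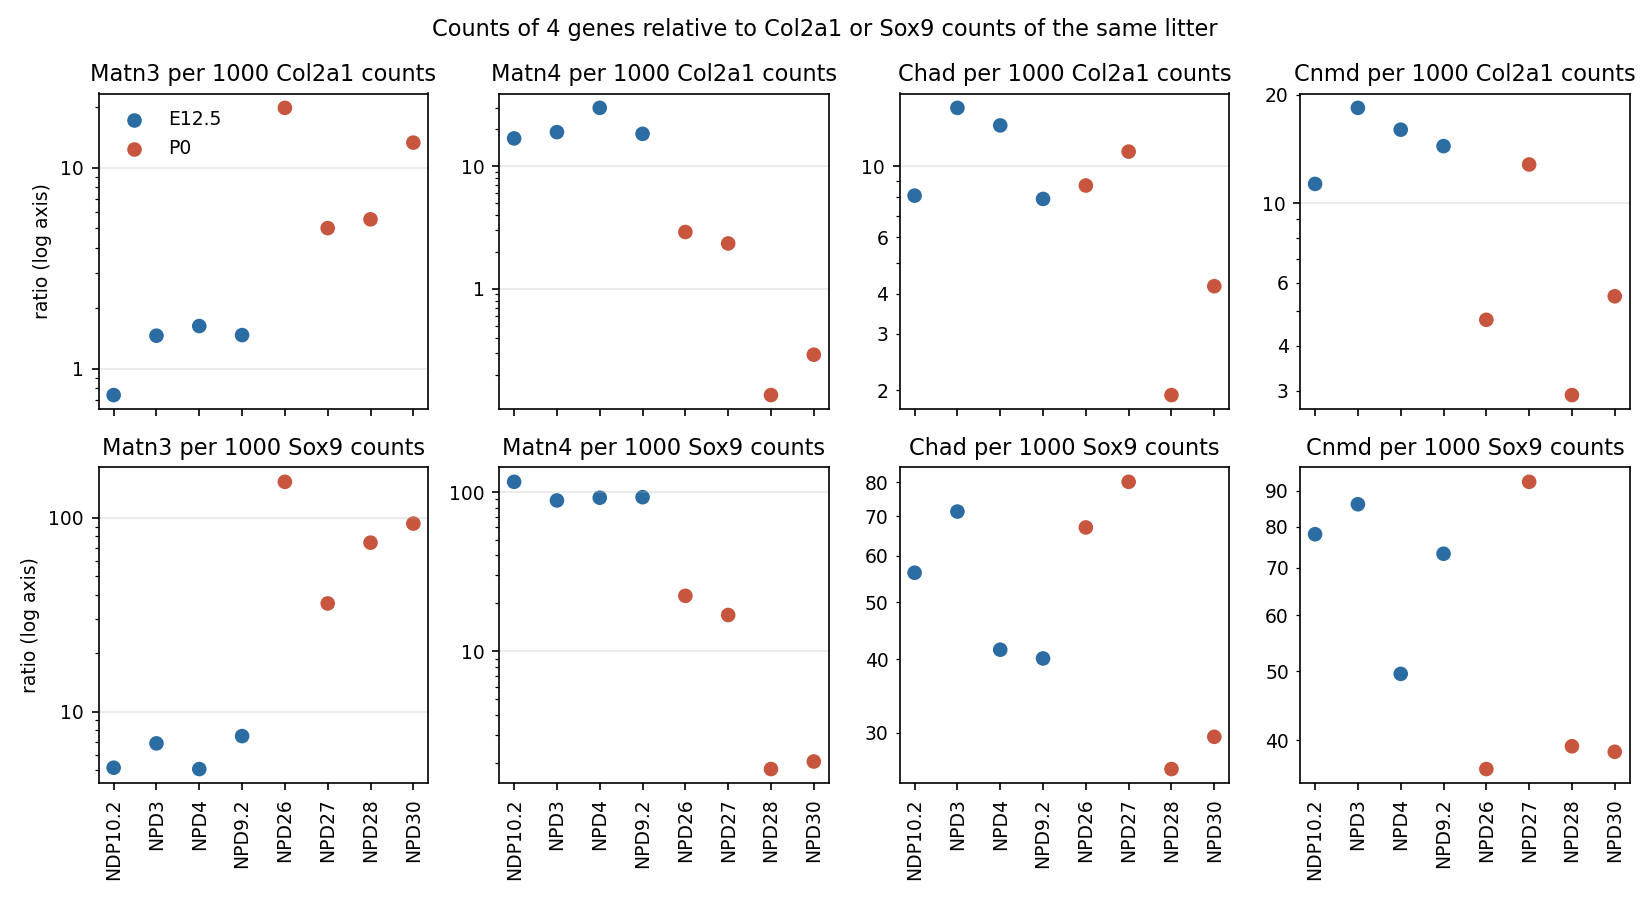
Counts of Matn3, Matn4, Chad and Cnmd per 1000 counts of Col2a1 (upper row) or Sox9 (lower row) in each litter, on log axes that differ between panels, blue for E12.5 and red for P0. The stages are apart for Matn3 and Matn4 on both scales and overlap for Chad and Cnmd, with Chad at 40.1 to 71.3 and 26.0 to 80.1 per 1000 Sox9 counts.

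The matrix in which these glycoproteins work also changed in part. Of 14 cartilage matrix partners, 13 were tested, 3 were called as higher and 5 as lower at P0, and the median log2 fold change was -0.49, beside 27.9% of genes called and a median of 0.04 over all genes tested. Col9a2 and Col9a1, chains of the type IX collagen on the surface of cartilage fibrils to which matrilins and Comp bind, fell (log2 fold changes -4.43 and -2.94, edgeR adjusted p = 8.69e-05 and 0.00158), and the small proteoglycan Epyc fell as well (-3.06, adjusted p = 0.011). The 3 that rose were the small proteoglycan Bgn (2.22, adjusted p = 0.0012), the aggrecan gene Acan (1.99, adjusted p = 0.0422) and Snorc (1.55, adjusted p = 0.0288), and only 1 gene was called as higher without E12.5 litter NPD3 or NPD9.2, without P0 litter NPD30, or without both NDP10.2 and NPD9.2. The link protein gene Hapln1 was not called (log2 fold change -0.75, adjusted p = 0.318). Of 9 chondrogenic regulators, all tested, 4 were called, each as lower, with a median of -1.23. Nkx3-2, Sox5 and Zfp219 fell (log2 fold changes -3.22, -1.99 and -1.71, edgeR adjusted p = 0.0101, 0.00651 and 0.00179), while Trps1 was not called (-0.02, adjusted p = 0.978). Epyc and Nkx3-2 were at 1 to 9 and 0 to 10 counts in the P0 litters and, like Matn4, passed the filter through their E12.5 litters.

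Of 8 sequence relatives of the members, 7 were tested and 1 was called, beside 27.9% of all genes tested. This was Chadl, the chondroadherin-like gene, which fell from 20.5 ± 14.0 to 3.41 ± 1.48 CPM (SD, n = 4), a log2 fold change of -2.58 (edgeR adjusted p = 0.00461), so both chondroadherin genes were called as lower. Tnmd, the tendon relative of Cnmd, had 26 counts in all at E12.5 and 41 at P0 and was not tested. The thrombospondin genes Thbs1 and Thbs2, relatives of Comp, were not called (log2 fold changes 0.98 and -0.27, adjusted p = 0.287 and 0.669). Of 6 genes for Gla proteins and the vitamin K cycle, on which Ucma depends for its modified residues, 4 were tested and 1 was called, beside the same 27.9%. The matrix Gla protein gene Mgp rose from 22.6 ± 7.31 to 64.4 ± 32.9 CPM (log2 fold change 1.51, edgeR adjusted p = 0.0123). The carboxylase gene Ggcx and the reductase gene Vkorc1l1 were not called (adjusted p = 0.455 and 0.657).

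Of 7 genes for proteases that can cut these glycoproteins, all tested, 2 were called as higher and 2 as lower, with a median log2 fold change of -0.15. Over all genes tested, 16.0% were called as higher and 12.0% as lower. Adamts7 and Adamts12, whose products cleave Comp, fell (log2 fold changes -2.60 and -2.38, edgeR adjusted p = 0.000769 and 0.00297). The collagenase gene Mmp13 rose from 2 counts over the 4 E12.5 litters to 4145 counts over the 4 P0 litters (edgeR adjusted p = 1.13e-05). It passed the filter through its P0 litters alone, so it had to differ to be tested. The count of proteases called as higher was 1 without E12.5 litter NPD3 or NPD9.2, without P0 litter NPD28 or NPD30, without both NDP10.2 and NPD9.2, with no filter, and with at least 10 counts in every sample. Adamts5 and Furin were not called (log2 fold changes 0.12 and -0.33, adjusted p = 0.835 and 0.662).

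Markers of other cells moved with the stage as well. Over all genes tested, 16.0% were called as higher and 12.0% as lower at P0. Some markers, such as Dmp1 and Ibsp at 0 to 2 counts in the E12.5 litters, passed the filter through a single stage. Such genes had to differ to be tested. At E12.5 osteoblast markers summed to 658 to 2245 CPM, against 5064 to 18043 CPM in the P0 litters, and all 7 tested of 9 were called as higher. The collagen genes Col1a1 and Col1a2 made up most of these sums. They averaged 751 and 673 CPM in the notochord samples, against 6966 and 3837 in the NP samples. Each of the other tested markers averaged only 0 to 4.23 CPM before birth, but 9.41 to 356 after it. Bglap2 and Dmp1 were at 0 in every E12.5 litter, but Bglap2 had only 1 to 5 counts in the P0 litters. Growth plate markers summed to 107 to 184 CPM and 233 to 281 CPM, with 3 of 5 tested called as higher, among them Col10a1, which marks hypertrophic chondrocytes, at 2.49 ± 0.933 and 22.5 ± 6.51 CPM (SD, n = 4). Annulus fibrosus and tendon markers summed to 148 to 459 CPM and 696 to 1582 CPM, with 1 of 6 tested called as higher and 2 as lower. Erythroid markers summed to 10265 to 49926 CPM at E12.5, against 439 to 1364 CPM after birth, with 6 of 10 called as lower. Of the 2 most abundant markers in each list other than that of the notochord, Col1a1, Col1a2, Fmod, Lyz2, Laptm5, Pax1, Foxc2 and Hba-a1 were called, and Mef2c, Pth1r, Egr1 and Hbb-bs were not (edgeR adjusted p from 0.0673 for Hbb-bs to 0.632 for Mef2c). The part of these cells in the rise of Matn3 was not tested.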

How the data were processed

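RNA from NDCs of 4 E12.5 and 4 P0 litters was sequenced from TotalScript libraries. The authors aligned the reads with STAR 2.4.0j to GRCm38, counted them with htseq-count on Gencode M4 genes and deposited raw counts, 1 table per sample, without normalization. The strand setting is not given in the sources used here. Stage was taken from the age in the labels. Of 43346 identifiers, 42462 were matched to a symbol, with positions and exon lengths from Gencode M21 on the same build. Summary lines of the counter, 65.2% to 77.4% of reads tallied, were left out, and no column of per-sample values was unused.

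The 10 members and all gene lists were chosen with earlier results of these data known. The named genes are all members, for each tested member the 2 genes with the nearest centred log2 CPM profile (smallest root mean square difference, mean log2 CPM of at least 2), from each context list the 3 called genes with the largest change and the 2 uncalled genes with the highest mean, from each marker list the 2 genes with the highest mean, and every notochord marker. Some genes outside this rule (Col10a1, Bgn, Acan, Snorc, Tnmd, Dmp1, Ibsp, Bglap2, Retnlg, Uncx, Meox1, Rbpjl and 9430069I07Rik) were added after their values were seen.

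Counts were normalized by TMM and tested in R 4.3.3 with edgeR 4.0.16 (filterByExpr with a minimum count of 10 and a minimum total of 15, robust quasi-likelihood F-test without covariates, Benjamini-Hochberg adjustment over 15467 genes). A standard error is the log2 fold change divided by the square root of F. The procedure was tested on simulated data. DESeq2 1.42.0 and limma 3.58.1 (voom) served as alternatives, beside other normalizations and filters, a non-robust fit, tables without mitochondrial and hemoglobin genes, and fits without some litters. Log2 CPM used a prior count of 2, and levels per kilobase the union of exons. Nothing in the labels says more of replication than separate litters. Libraries of a stage differed by a chi-square per gene of 13.0 to 90.0, so no library was a copy of another. Promoters came from RefSeq on GRCm38.p6, with an entry for 8 of the 10 members.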

Additional observations from a re-analysis of the deposited data

Results flagged for a closer look

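In the P0 litters, Cilp2 in NPD30 had a log2 CPM of 1.46, beside -0.08 to 0.06 in the other 3 litters, which made it stand apart from its group by Dixon's test. It rested on 16 counts against 4 to 6. This was the 1 flag among 20 groups of 4 litters tested (10 members, 2 stages), and chance flags about 1 in 20 groups. NPD30 also had the highest P0 levels of Matn3, Chad, Cnmd and Comp.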

How the results depend on the processing

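Of 17 alternatives of the fit, 16 tested Matn4 and all of those called it, as all 17 did Chad. Matn3 was called in 15 and Cnmd in 16. Members called as higher at P0 numbered 0 in place of 1 with limma-voom. Without E12.5 litters NDP10.2 and NPD9.2, 2 members were called, 0 of them as higher, and 2581 genes of 16971 tested, 1493 as higher and 1088 as lower. Fewer samples entered that fit. In it 2 chondrogenic regulators were called, and Chadl and Mgp were not. Sequence relatives called numbered 2 without NPD27 or without a filter, and 1 chondrogenic regulator was called as higher without NPD4. With a litter left out, 3612 to 4529 genes and 4 members (1 as higher, 3 as lower) were called in each of the 8 fits, with 2084 to 2586 of all genes as higher and 1512 to 1943 as lower. In these fits the log2 fold change ran from -0.59 to 0.70 for Comp and from -0.33 to 0.69 for Cilp. That of Comp turned to 0.70 without NPD3 and 0.10 without NPD28, and that of Cilp to -0.14 without NPD3, -0.33 without NPD4, -0.07 without NPD26 and -0.17 without NPD27. The difference in the share of Matn4 was -59.0 to -55.8 percentage points with a litter left out (exact permutation p = 0.0571, the smallest that 4 against 3 allow), -60.1 without division by length and -65.5 by the longest coding transcript, an alternative chosen after seeing the data, as the ratios to Col2a1 and Sox9 were. Upper quartile normalization shifted the median of all genes by -0.145, called 2105 genes as higher and 2322 as lower, and changed no member's call. Ucma ran from 0.53 to 2.21 with a litter left out. No paired analysis was possible because the litters of the stages share no number. Counts under about 10 per library limit Matn1, Cilp, Cilp2 and Ucma, and the isolation method cannot be told apart from the stage. Such counts also limit Comp in NPD9.2 and NPD28 (4 and 9) and the P0 level of Matn4 in NPD28 and NPD30 (4 and 7). The size of the Matn4 ratio rests in part on those few reads.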
